A study of Homo sapiens with 6 samples.

Results

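The laminin chain genes were read in 2 human lung epithelial cell lines after treatment with transforming growth factor-β1 (TGF-β1). A laminin is a large secreted glycoprotein built from 1 α, 1 β and 1 γ chain, and laminin trimers form the sheet of the basement membrane on which epithelial cells rest. The trimers are named by their chains, so that laminin-511 holds α5, β1 and γ1. The members were the 9 entries with the symbols LAMA1, LAMA2, LAMA3, LAMA4 and LAMA5 (α chains), LAMB1, LAMB2 and LAMB3 (β chains) and LAMC1 (the γ1 chain), out of 25737 entries in the count tables. Each member had 1 entry in every table, and between 7 and 9 of the members had at least 1 count in a library.

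A549 is a lung carcinoma epithelial cell line, and BEAS-2B is an immortalized bronchial epithelial line. Both were labeled as wild type (WT) for genotype. Each line had 1 untreated control library, 1 library at 1 ng/mL and 1 library at 5 ng/mL of TGF-β1, with 48 h of exposure, which gives 6 libraries in all. The labels place the treated cells in low-serum medium and do not give the medium of the controls, so an effect of TGF-β1 and an effect of a change of medium cannot be told apart here. With 1 library per condition, there was no replicate spread and no test between conditions.

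Laminins are assembled inside the cell, and the β and γ chains pair first. An α chain then joins the β-γ pair, and the complete trimer is secreted. The α chain carries the globular end that binds integrins, dystroglycan and syndecans on the cell surface. In the lung, laminin-511 and laminin-332 lie under the airway and alveolar epithelium, laminin-332 anchors epithelial cells through hemidesmosomes, and laminin-411 is best known from vessel walls. TGF-β1 is a main inducer of matrix production and of the epithelial-mesenchymal transition (EMT), in which epithelial cells lose their junctions.

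The values were read counts from a 3′ mRNA kit, which reads near the 3′ end of an mRNA and not along its whole length. For this reason counts of different chains were set side by side without division by transcript length, and they depend on how well each 3′ end was captured. The normalized count is the count after TMM scaling to a common library size. Adding 1 and taking log2 turns it into the ND value. A chain counted as changed when it differed by 2-fold or more and when either library of the pair reached an ND value of 7, the minimum level, which corresponds to a normalized count of 127. Ratios carry exact 95% Clopper-Pearson intervals, which cover counting error only.

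Total counts per library ran from 4120624 to 7841350. A raw count of 101 to 185 was needed to reach the minimum ND value. Genes of the TGF-β feedback and response list rose at 5 ng/mL in both lines, with 4 of 4 measurable genes in A549 cells and 5 of 5 in BEAS-2B cells past the limit. The summed normalized count of 5 epithelial markers was 24830, 11180 and 10460 in A549 cells from the control to the highest dose. In BEAS-2B cells, the same sum was 2050, 1042 and 1262. EPCAM, a defining epithelial marker, had a count of 0 in all 3 BEAS-2B libraries, and CDH1 had 2, 0 and 2 counts. KRT19 had 46, 5 and 19 counts there, while KRT8 and KRT18 were higher. KRT8 and KRT18 make up most of these sums, with 7081 and 16910 in the A549 control. CDH1 in A549 cells had normalized counts of 741.5, 20.6 and 7.26 in the order of dose, and EPCAM had 56.8, 4.8 and 1.8. In such bulk libraries, fewer cells of a type and less RNA per cell cannot be told apart.

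The laminin chains did not move in 1 direction after TGF-β1. In BEAS-2B cells at 5 ng/mL, LAMC1 rose, LAMA5 and LAMB2 fell, and LAMB1 lay above its control without reaching the limit. In A549 cells, 0 of the 3 chains at the minimum level passed the limit at either dose, and LAMA5 and LAMB1 lay below their control while LAMC1 lay above it at 5 ng/mL. The α3 chain was lower in the treated libraries of both lines, at low counts. Per LAMC1 count, the summed α chain counts were lower in every treated library than in its control.

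Against these counts stands the background of all genes. At 1 ng/mL in A549 cells, 0 of 3 laminin chains rose and 0 fell, while 10.9% of all 7007 genes at the minimum level rose and 12.6% fell. At 5 ng/mL in A549 cells, 0 of 3 rose and 0 fell, against 16.1% and 17.1% of 7115 genes. At 1 ng/mL in BEAS-2B cells, 0 of 4 chains rose and 2 fell, against 5.66% and 9.13% of 6681 genes. At 5 ng/mL in BEAS-2B cells, 1 of 4 rose and 2 fell, against 7.33% and 11.6% of 6735 genes. With 3 or 4 chains at the minimum level, these counts are too small to be set firmly against the background.

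Over the chains at the minimum level, the median log2 fold change was -0.28 at 1 ng/mL and -0.43 at 5 ng/mL in A549 cells, where the median of all genes at that level was 0.09 and 0.11. For BEAS-2B it was -0.11 and -0.43, against 0.01 and 0.03. These medians stand over 3 or 4 chains that lie on both sides of 0. Over all 9 chains, most of them under the minimum level, the medians were -0.31 and -0.71 in A549 cells and -1.02 and -0.71 in BEAS-2B cells. By counting error alone, the interval of the ratio lay below 1 for 6 of 9 chains and above 1 for 2 in A549 cells at 5 ng/mL, while it lay below 1 for 27.6% and above 1 for 26.7% of 17381 entries with a count in either library. In BEAS-2B cells at the same dose, it lay below 1 for 5 and above 1 for 2, against 24.8% and 24.3% of 15892 entries. How often the interval leaves 1 depends on the level of a gene, which was not matched here.

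**Figure D1:**
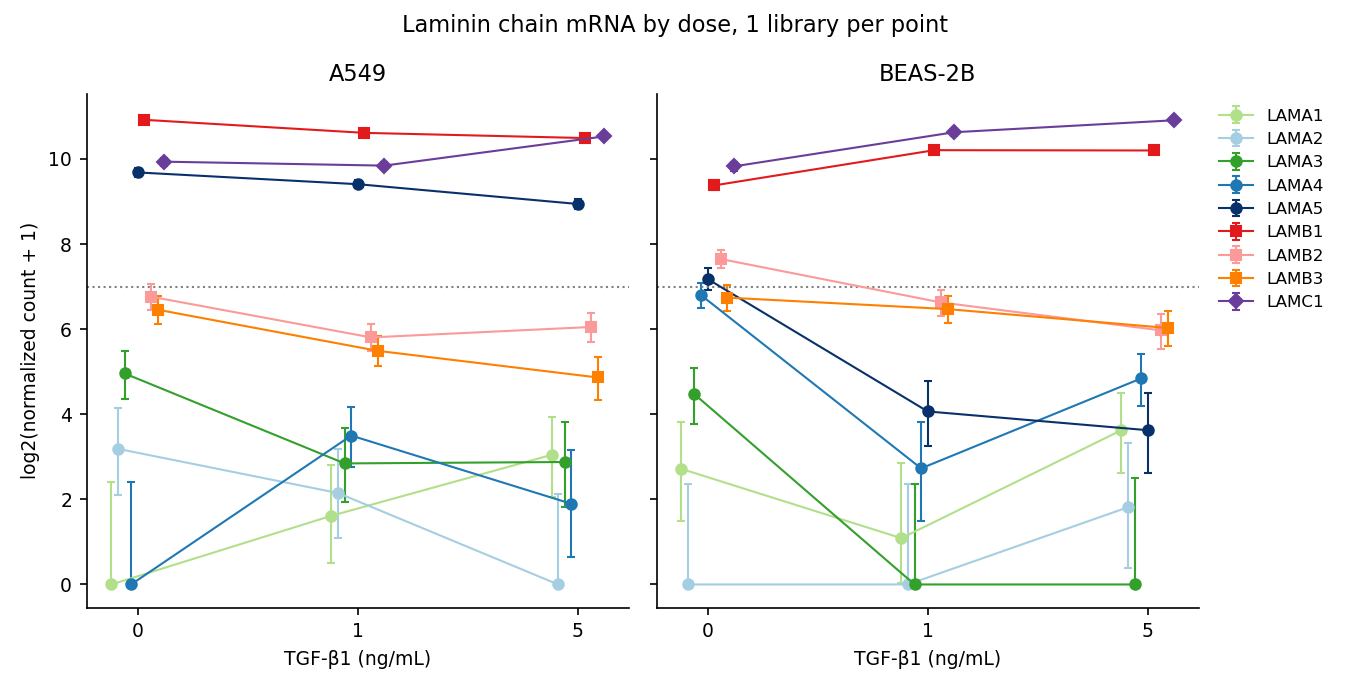
Level of the 9 laminin chains in each of the 6 libraries, as log2 of the normalized count plus 1, with 1 point per library and bars for the exact 95% counting interval. LAMC1 in BEAS-2B cells climbs from a normalized count of 907 in the control to 1923 at 5 ng/mL, whereas LAMA5 in the same cells drops from 144 to 11.3.

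LAMC1 encodes the γ1 chain, which most laminin trimers share. Its normalized count in A549 cells was 979 in the control, 918 at 1 ng/mL and 1479 at 5 ng/mL. The corresponding BEAS-2B values were 907, 1582 and 1923. The control levels of the 2 lines lay close together, and both treated BEAS-2B libraries lay above every A549 library. Within counting error, the A549 control, the A549 library at 1 ng/mL and the BEAS-2B control had overlapping intervals, as had the A549 library at 5 ng/mL and the BEAS-2B library at 1 ng/mL.

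In BEAS-2B cells, LAMC1 was 1.75-fold its control at 1 ng/mL (1.60 to 1.90) and rose 2.12-fold at 5 ng/mL (1.95 to 2.31). This rise lies close to the limit of 2, and with scaling by total counts alone the log2 fold change was 0.95, under the limit. In A549 cells, the ratio was 0.938 at 1 ng/mL (0.860 to 1.02), which includes 1, and 1.51 at 5 ng/mL (1.39 to 1.64). LAMC1 was thus above its control at both doses in BEAS-2B cells and at the higher dose in A549 cells. Its promoter in RefSeq (GRCh38.p14), from 250 bases before to 50 bases after the transcript start, has a GC content of 79% and held 3 matches to the GC box GGGCGG on either strand, a motif found in 45% of 35116 promoters of that length. The same box was matched in 6 of the 8 chains with a promoter, with 5 matches in LAMA5 and 4 in LAMB1.

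LAMB1 encodes the β1 chain, the partner of γ1 in laminin-111, laminin-211, laminin-411 and laminin-511, and was the most abundant β chain in all 6 libraries. Its normalized count in A549 cells was 1937, 1566 and 1439 with increasing dose. The BEAS-2B libraries gave 665, 1181 and 1175. The 2 lines therefore moved toward each other, with A549 levels below and BEAS-2B levels above their own control at both doses.

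Neither line passed the limit for LAMB1. The ratio to control was 0.809 (0.759 to 0.862) and 0.743 (0.693 to 0.796) in A549 cells and 1.78 (1.61 to 1.97) and 1.77 (1.59 to 1.96) in BEAS-2B cells. All 4 intervals lay away from 1. The step from 1 to 5 ng/mL gave 0.995 in BEAS-2B cells (0.910 to 1.09), so a difference between the doses was not detectable there.

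LAMB2 encodes the β2 chain of laminin-121, laminin-221, laminin-421 and laminin-521, known from muscle, nerve and kidney basement membranes. Its normalized count in BEAS-2B cells was 200 in the control, 97.9 at 1 ng/mL and 61.7 at 5 ng/mL. In A549 cells it was 108, 55.0 and 65.3, with the control under the minimum level. LAMB2 was highest in the control of each line.

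In BEAS-2B cells, LAMB2 fell 2.04-fold at 1 ng/mL (1.57 to 2.67) and 3.24-fold at 5 ng/mL (2.35 to 4.53). The first value lies at the limit, and its log2 fold change ran from -1.15 to -0.95 over the alternatives tried. In A549 cells, LAMB2 was 1.96-fold lower at 1 ng/mL and 1.65-fold lower at 5 ng/mL (1.20 to 2.28). The pseudogene LAMB2P1 had counts of 5 to 15 in the 6 libraries, small beside the 49 to 179 of LAMB2. The next annotated exon on the same strand belongs to USP19, 176 bases past the end of LAMB2.

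LAMB3 encodes the β3 chain, which is found only in laminin-332. Its normalized count in A549 cells was 86.9, 44.0 and 28.1 with increasing dose, and the BEAS-2B libraries gave 106, 87.8 and 64.2. All 6 values lay under the minimum level, with the control above both treated libraries in each line. LAMB3 was 1.98-fold lower at 1 ng/mL (1.40 to 2.80) and 3.09-fold lower at 5 ng/mL (2.01 to 4.86) in A549 cells. In BEAS-2B cells it was 1.21-fold lower at 1 ng/mL (0.885 to 1.65), an interval that includes 1, and 1.65-fold lower at 5 ng/mL (1.16 to 2.37).

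**Figure D2:**
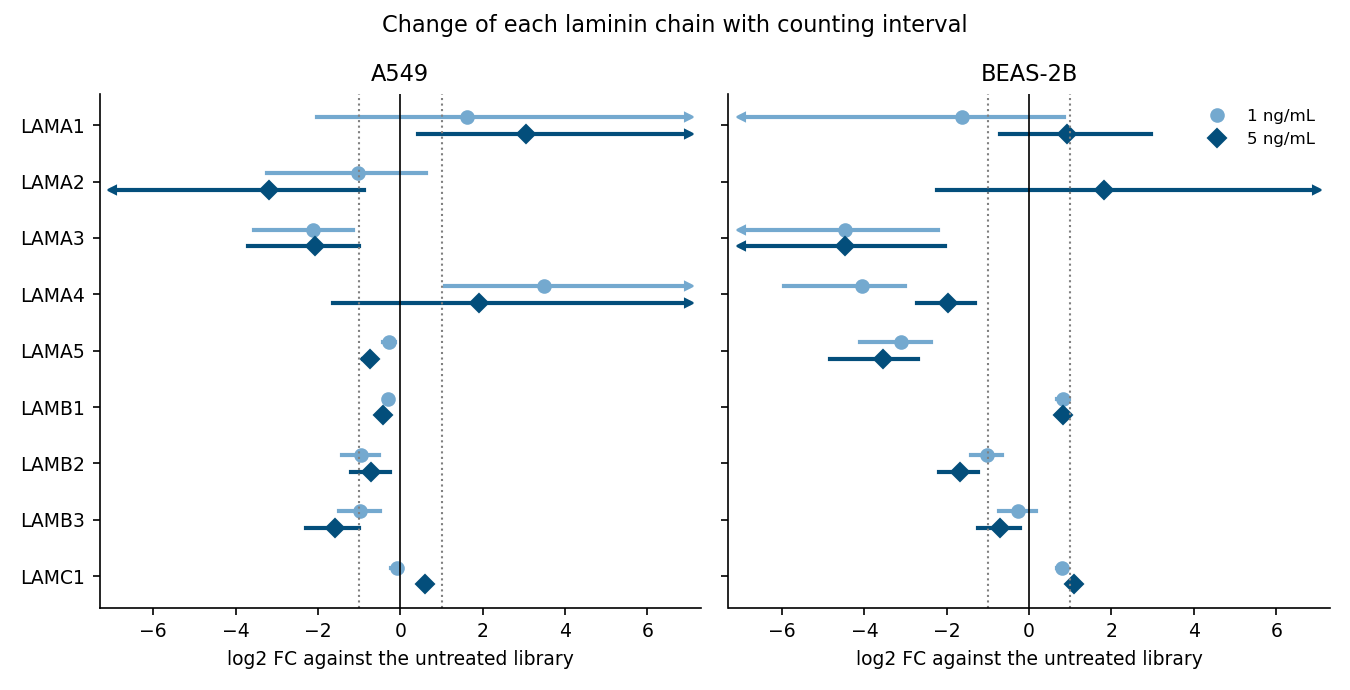
Log2 fold change of each laminin chain against the control of the same line at 1 and 5 ng/mL, on normalized counts plus 1. Bars are exact 95% counting intervals, arrows mark bars that run past the axis and dotted lines mark the 2-fold limit. LAMB1 in A549 cells lies at -0.31 and -0.43 and in BEAS-2B cells at 0.83 and 0.82, on either side of 0.

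LAMA5 encodes the α5 chain of laminin-511 and laminin-521 and was the most abundant α chain in every library but 1, the exception being BEAS-2B at 5 ng/mL. Its normalized count in A549 cells was 821, 678 and 491 with increasing dose. The BEAS-2B libraries gave 144, 15.8 and 11.3, from raw counts of 129, 14 and 9. The level was lower at each higher dose in both lines, and the BEAS-2B values at 1 and 5 ng/mL had overlapping intervals.

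LAMA5 fell 9.13-fold at 1 ng/mL (5.25 to 17.2) and 12.7-fold at 5 ng/mL (6.48 to 28.4) in BEAS-2B cells, the largest fold change of a chain at the minimum level. In A549 cells the ratio was 0.826 (0.749 to 0.910) at 1 ng/mL and 0.598 (0.533 to 0.669) at 5 ng/mL, within the 2-fold limit. LAMA5 has the highest transcript GC content of the chains named here, 66.4%. When the trend over GC content was taken out, a setting added once the data had been seen, its log2 fold change in A549 cells at 5 ng/mL was -1.52 instead of -0.74 and passed the limit. The part of GC content in this value was not tested otherwise.

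Neighboring genes of LAMA5 were also read. The antisense gene LAMA5-AS1 had 7, 19 and 5 counts in A549 cells and 0 in each BEAS-2B library. ADRM1 overlaps the LAMA5 gene on the opposite strand. Its nearest exon past the end of the longest LAMA5 coding transcript lies 203 bases away. ADRM1 had normalized counts of 497, 1022 and 1144 in A549 cells and 994, 1068 and 912 in BEAS-2B cells. The strand setting of the counting is not given in the sources used here. Reads of LAMA5, of its antisense gene and of ADRM1 may therefore not be separated. No exon of another gene lies over the last 500 bases of the longest coding transcript of any of the 9 chains in the GENCODE v29 annotation.

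LAMA4 encodes the α4 chain of laminin-411 and laminin-421, known from vessel walls and from mesenchymal cells. In BEAS-2B cells it had 99 counts in the control, 5 at 1 ng/mL and 22 at 5 ng/mL, or normalized counts of 110, 5.63 and 27.7. In A549 cells it had 0, 15 and 3 counts. The BEAS-2B control stood well above the other 5 libraries, all of which lay far under the minimum level.

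LAMA4 was 19.6-fold lower at 1 ng/mL (8.13 to 61.8) and 3.99-fold lower at 5 ng/mL (2.49 to 6.65) in BEAS-2B cells. The level at 5 ng/mL was 4.92-fold that at 1 ng/mL (1.82 to 16.7), so the lowest level lay at the middle dose. None of these passed the call, since the control reached an ND value of 6.80 and not 7. In A549 cells, LAMA4 was at least 2.97-fold higher at 1 ng/mL than in the control, taking 3 counts as the limit that a count of 0 allows.

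The A549 library at 1 ng/mL also held more counts of markers of other cell types than the other A549 libraries. Of 10 such markers, 7 were above 0 there, against 3 in the control and 6 at 5 ng/mL, and their summed normalized counts were 124, 70.7 and 67.1. These libraries differ in depth, with total counts of 7841350, 4144476 and 6101351 in the same order, so the numbers above 0 are not at equal depth. Of the single markers, DCN had 53, 2 and 6 counts in that order. In BEAS-2B cells, 4, 3 and 5 of the 10 were above 0, with sums of 165, 219 and 219. PDGFRB made up most of these BEAS-2B sums, at normalized counts of 131.6, 200.3 and 201.5, and reached the minimum level in each of the 3. CD3E, VWF and CDH5 were at 0 in all 6 libraries. The part of these markers in the LAMA4 values was not tested.

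LAMA3 encodes the α3 chain of laminin-332, laminin-311 and laminin-321. It had 26, 9 and 7 counts in A549 cells and 19, 0 and 0 counts in BEAS-2B cells, in the order of dose. Each control stood above both treated libraries of its line. LAMA3 was 4.87-fold lower at 1 ng/mL (2.21 to 11.8) and 4.74-fold lower at 5 ng/mL (2.01 to 12.9) in A549 cells. In BEAS-2B cells it was at least 6.28-fold lower at 1 ng/mL and at least 5.61-fold lower at 5 ng/mL. Of 10 coding transcripts of LAMA3, 5 end within 1000 bases of the same 3′ end, so these 5 may not be told apart by reads there. Which forms of the α3 chain the transcripts encode was not checked.

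LAMA1 and LAMA2 were at the edge of detection. LAMA1, the α1 chain of laminin-111, is best known from the embryo, and had 0, 3 and 8 counts in A549 cells and 5, 1 and 9 in BEAS-2B cells. LAMA2, the α2 chain of muscle laminin-211, had 7, 5 and 0 counts in A549 cells and 0, 0 and 2 in BEAS-2B cells. The limit of 3 counts behind a count of 0 corresponds to a CPM, the count scaled to a library of 1000000 counts, of 0.383 to 0.728. The interval of the ratio to control lay above 1 for LAMA1 and below 1 for LAMA2 in A549 cells at 5 ng/mL, and a difference from control was not detectable at this depth for either gene in the other 3 treated libraries.

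LAMA3 and LAMB3, the α and β chains of laminin-332, were the chains whose promoters held a match to the AP-1 motif TGANTCA, searched on both strands. This motif was found in 7.71% of 35116 RefSeq promoters of the same length. AP-1 is a family of dimeric transcription factors formed by Jun and Fos proteins. Promoters were found for 8 of the 9 chains, LAMA1 having none, and LAMB3 had 3, of which 1 held the motif. The matches are shown because they set the α and β chain genes of laminin-332 beside each other in sequence. The γ chain gene of this trimer was not searched. Motifs are in capitals, 5′ to 3′ on the strand of the gene, in GRCh38.p14. The LAMA3 windows lie on the plus strand at chr18:23872884-23872913 and chr18:23872940-23872969, with the motif starting 125 and 69 bases before the transcript start. The LAMB3 window lies on the minus strand at chr1:209651423-209651452, with the motif 67 bases before the start.
LAMA3, distal match: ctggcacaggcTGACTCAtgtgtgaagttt
LAMA3, proximal match: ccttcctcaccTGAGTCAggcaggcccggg
LAMB3: gtcagccactcTGACTCAttcactttgggc

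The SMAD element CAGACA, a short motif bound by the SMAD proteins that carry the TGF-β signal, was found on either strand in 16.9% of all promoters. Among the chains, it was matched in LAMA3 and LAMA4, in the windows chr18:23872921-23872950 and chr6:112254622-112254651, with LAMA4 on the minus strand. The 2 windows below show these matches in capitals, with TGTCTG being the same motif read on the other strand.
LAMA3, SMAD element: gggcccctgccgCAGACAgccttcctcacc
LAMA4, SMAD element: ggcggacctcagTGTCTGaaaagccagctt
These matches are letters in a window and say nothing about binding of a factor in these cells.

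Within a library, shares of chains do not depend on the scaling between libraries. LAMA5 made up 95.6% of α chain counts in the A549 control (93.8 to 96.9), 96.9% at 1 ng/mL (95.6 to 97.8) and 96.8% at 5 ng/mL (95 to 98.1). The α chain counts of A549 cells were therefore nearly all LAMA5 with and without TGF-β1. In BEAS-2B cells the share of LAMA5 was 51.2% in the control (44.8 to 57.5), 70.0% at 1 ng/mL (45.7 to 88.1) and 21.4% at 5 ng/mL (10.3 to 36.8). The last 2 values rest on 20 and 42 α chain counts in all, against 252 in the control.

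LAMA4 made up 39.3% of α chain counts in the BEAS-2B control (33.2 to 45.6), 25.0% at 1 ng/mL (8.66 to 49.1) and 52.4% at 5 ng/mL (36.4 to 68.0). The 3 intervals overlap in part. Among the β chains, LAMB1 took 90.9%, 94.1% and 93.9% of counts in A549 cells. In BEAS-2B cells its share went from 68.5% in the control (65.3 to 71.6) to 86.4% (84.4 to 88.3) and 90.3% (88.4 to 92.1). The share of LAMB2 in BEAS-2B cells was 20.6%, 7.16% and 4.74%, and that of LAMB3 was 10.9%, 6.42% and 4.94%.

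The summed α chain counts per LAMC1 count, a measure chosen after the values were seen, were 0.878 (0.795 to 0.970), 0.763 (0.702 to 0.828) and 0.343 (0.311 to 0.378) in A549 cells, in the order of dose. BEAS-2B cells gave 0.310 (0.268 to 0.357), 0.0142 (0.00866 to 0.0221) and 0.0275 (0.0197 to 0.0374). The A549 values at 0 and 1 ng/mL have overlapping intervals, and the value at 5 ng/mL lies below both. Both treated BEAS-2B values lie far below the control of that line.

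LAMB1 counts per LAMC1 count were 1.98, 1.71 and 0.973 in A549 cells and 0.733, 0.747 and 0.611 in BEAS-2B cells. In the treated BEAS-2B libraries LAMB1 and LAMC1 were thus both above their control, while the summed α chain counts, and LAMA3, LAMA4 and LAMA5 each, were below it. The normalized counts of all 9 chains summed to 3971, 3283 and 3518 in A549 cells and to 2158, 2972 and 3277 in BEAS-2B cells. The sum was lower than its control in both treated A549 libraries and higher in both treated BEAS-2B libraries.

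**Figure D3:**
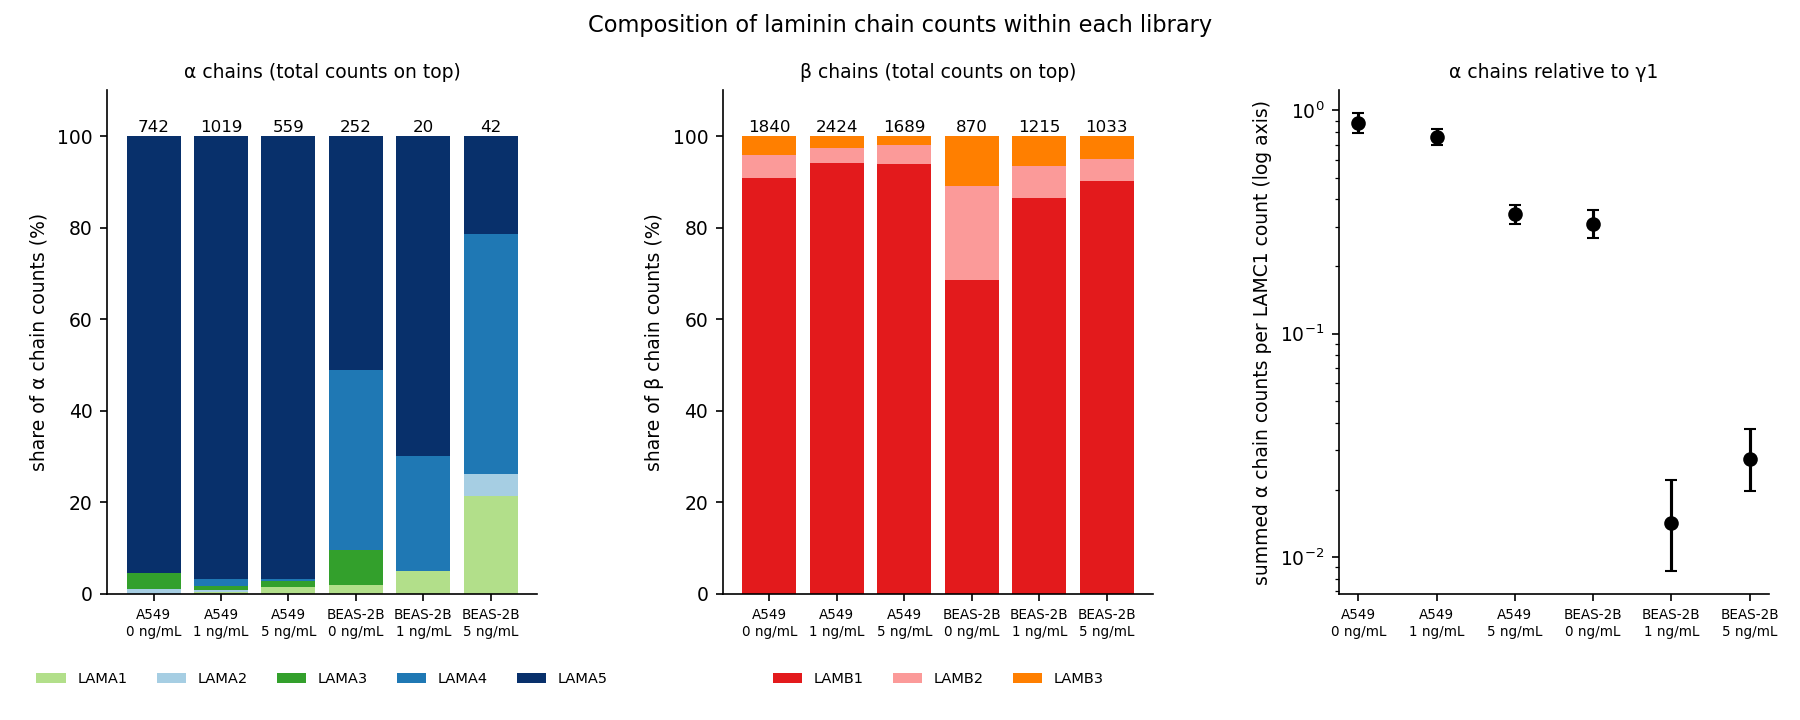
Share of each α and β chain in the α and β chain counts of a library, in percent, with the total counts on top, and the summed α chain counts per LAMC1 count on a log axis with exact 95% counting intervals. In BEAS-2B cells the ratio drops from 0.310 in the control to 0.0142 at 1 ng/mL and 0.0275 at 5 ng/mL.

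Read as trimers, the chain with the lowest normalized count marks which mRNA was scarcest, without measuring the protein. Among the 10 trimers made only of these chains, the scarcest was an α chain for 9 of 10 in each A549 library and for 10 of 10 in each BEAS-2B library. The trimers share chains, as each α chain enters with LAMB1 and again with LAMB2, and LAMC1 is in all of them. The 10 are therefore not separate readings. The exception in A549 cells was laminin-521, where LAMB2 at 108, 55.0 and 65.3 lay under LAMA5. For laminin-511, LAMA5 was the scarcest chain in all 6 libraries, from 821 in the A549 control to 11.3 in BEAS-2B cells at 5 ng/mL. For laminin-411, LAMA4 was the scarcest in all 6 libraries, with its highest value, 110, in the BEAS-2B control. For laminin-332, read from α3 and β3, LAMA3 lay under LAMB3 in all 6 libraries, with 0 counts against 78 and 51 in the treated BEAS-2B libraries.

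**Figure D4:**
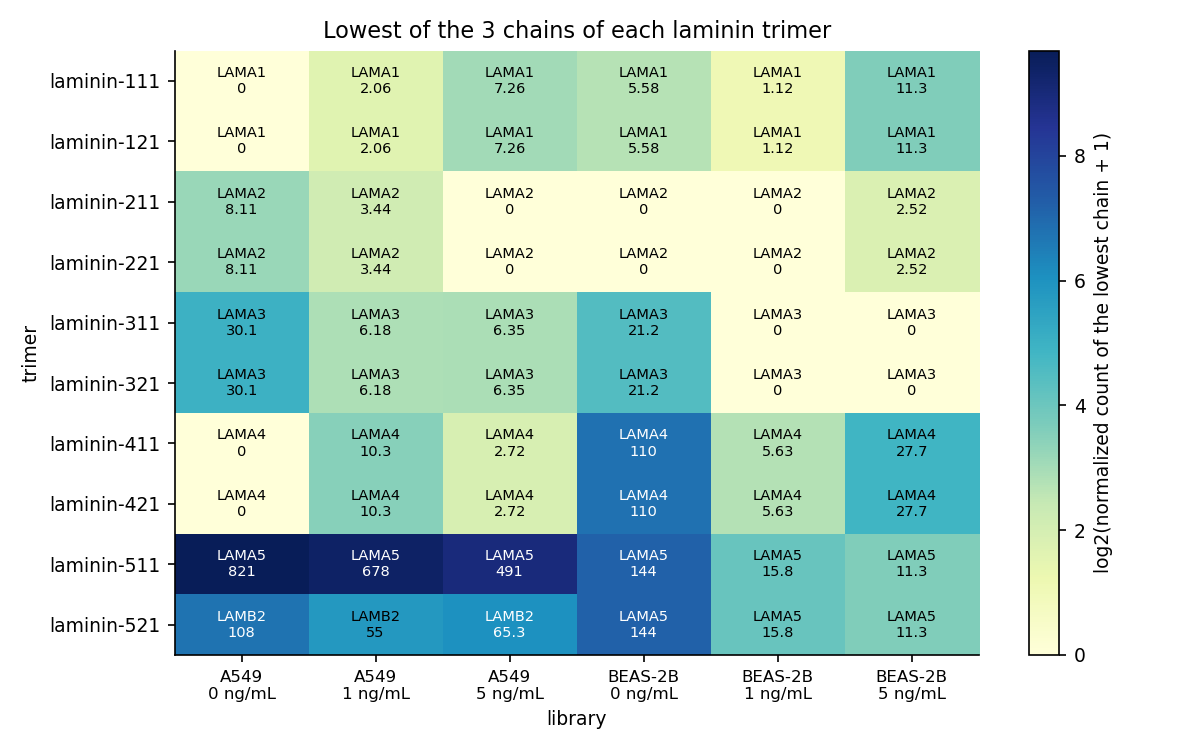
Normalized count of the scarcest chain of each laminin trimer in each of the 6 libraries, for the 10 trimers made only of the 9 chains. Each cell names the chain and prints its normalized count, and the color shows log2 of that count plus 1. Laminin-511 is at 821, 678 and 491 in A549 cells and at 144, 15.8 and 11.3 in BEAS-2B cells.

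The dose step from 1 to 5 ng/mL moved no laminin chain past the limit in either line. Here 0 of 3 chains at the minimum level changed in A549 cells, against 1.61% of all 6467 genes that rose and 1.79% that fell. In BEAS-2B cells 0 of 2 changed, against 0.492% and 0.412% of 6306 genes. Within the limit, LAMC1 was 1.61-fold higher at 5 than at 1 ng/mL in A549 cells (1.5 to 1.73) and 1.22-fold higher in BEAS-2B cells (1.13 to 1.31). LAMA5 in A549 cells was at a ratio of 0.724 (0.651 to 0.805).

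Before treatment, the 2 lines differed past the limit in LAMA5 and LAMB1. Of 4 chains at the minimum level, 0 were higher and 2 were lower in BEAS-2B than in A549 cells past the limit, against 18.9% and 18.1% of 7329 genes. LAMA5 was 5.71-fold lower (4.73 to 6.94) and LAMB1 2.91-fold lower (2.65 to 3.21) in the BEAS-2B control. LAMB2 was 1.85-fold higher there (1.43 to 2.41), within the limit and with an interval above 1. LAMA4 was at least 31.8-fold higher in BEAS-2B cells, from 99 counts against 0, and stayed under the minimum level. LAMC1, at a ratio of 0.926 (0.840 to 1.02), and LAMB3, at 1.22 (0.891 to 1.67), had intervals that include 1.

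Laminins are bound by integrins, of which α3β1 and α6β4 are the main receptors of laminin-332 and laminin-511. Of 5 integrin genes at the minimum level in A549 cells at 5 ng/mL, 3 rose and 0 fell, against 16.1% and 17.1% of all genes. In BEAS-2B cells at 5 ng/mL, 1 of 5 rose and 3 fell, against 7.33% and 11.6%. The median log2 fold changes of these genes were 1.22 and -1.52, where those of all genes at the minimum level were 0.11 and 0.03. The same background values apply to the further lists at 5 ng/mL.

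ITGA3, the α3 integrin subunit, had normalized counts of 650, 2201 and 1767 in A549 cells, a rise, and of 804, 1291 and 1600 in BEAS-2B cells, within the limit. ITGB1, its β1 partner, had 4992, 7433 and 7044 in A549 cells, within the limit, and 4371, 8366 and 9123 in BEAS-2B cells, a rise at 5 ng/mL that was lost with total counts (log2 fold change 0.93). ITGA6, the α6 subunit, had 336, 145 and 172 in A549 cells, a fall at 1 ng/mL, and 185, 38.3 and 32.8 in BEAS-2B cells, a fall at both doses. ITGB4, the β4 subunit of hemidesmosomes, had 368, 651 and 862 in A549 cells and 494, 163 and 115 in BEAS-2B cells. It rose at 5 ng/mL in A549 cells and fell at both doses in BEAS-2B cells. With the GC trend removed, the A549 rises at 5 ng/mL of ITGA3 and ITGB4 were lost (0.92 and 0.67). ITGA2, the α2 subunit, rose in A549 cells to 622 from 228 at 5 ng/mL. Its BEAS-2B values of 13.4, 125 and 107 also lay above their control with treatment, but under the minimum level. ITGA7, the α7 subunit of muscle, fell in BEAS-2B cells by 1.52 on the log2 scale at 5 ng/mL, with its level under the minimum in thinned libraries. Its A549 values of 25.5, 48.8 and 39.9 lay under the minimum level.

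Among the other receptors, 2 of 4 rose and 0 fell in A549 cells at 5 ng/mL, and 1 of 3 rose and 2 fell in BEAS-2B cells, with medians of 0.74 and -1.73. Dystroglycan, encoded by DAG1, binds the globular end of α chains. DAG1 had normalized counts of 368, 302 and 207 in A549 cells, within the limit, and of 542, 182 and 163 in BEAS-2B cells, a fall at both doses. The syndecan SDC4 rose in A549 cells at 5 ng/mL, from 264 to 730, and fell in BEAS-2B cells, from 3652 to 1067. SDC1 was at 665 and 1744 in A549 cells and at 351 and 766 in BEAS-2B cells in the control and at 5 ng/mL, a rise in both. The BEAS-2B rise of SDC1 was lost with total counts (0.99) and the A549 rise with the GC trend removed (0.87). Of the genes that add the laminin-binding sugar to dystroglycan, 10 of 14 were found under their listed symbol and 3 were at the minimum level in each line. POMT2 rose in A549 cells at 5 ng/mL (log2 fold change 1.88), TMEM5 fell there (-1.44), and none passed the limit in BEAS-2B cells, with medians of 0.87 and -0.01.

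Type IV collagen forms the second network of the basement membrane. Of 9 partner genes at the minimum level in A549 cells at 5 ng/mL, 6 rose and 1 fell, and in BEAS-2B cells 3 of 8 rose and 0 fell, with medians of 1.54 and 0.82. COL4A1 had normalized counts of 235, 1342 and 1477 in A549 cells and 385, 2401 and 2265 in BEAS-2B cells. COL4A2 had 621, 3873 and 5733 in A549 cells and 1199, 6391 and 6132 in BEAS-2B cells. Both collagen genes rose at both doses in both lines, while no laminin chain did so. These 2 were named for the size of their change, and the other type IV collagen genes did not all rise. In A549 cells, COL4A5 had 136, 83.8 and 71.7, within the limit, and COL4A6 had 124, 25.4 and 19.05, under the minimum level. COL4A4 rose there, with 31.3, 162 and 231, and COL4A3 had 13.9, 61.2 and 77.1, under the minimum level. NTN4, a netrin that binds laminin γ chains, fell in A549 cells from 127 to 20.6 and 9.07, and its control, at the minimum level, was under it in thinned libraries and with TMM within each line.

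The hemidesmosome list leaves out ITGA6 and ITGB4, which were counted among the integrins and both fell in BEAS-2B cells at 5 ng/mL. Of the listed genes at the minimum level, 2 of 3 rose in A549 cells and 1 of 3 rose in BEAS-2B cells at that dose. Among these 3, 0 fell, with medians of 1.56 and 0.53. COL17A1, also listed, had only 0 to 2 counts in a library. CD151, a tetraspanin that binds laminin-receptor integrins, was at 1626, 4357 and 7852 in A549 cells and at 1837, 3394 and 3818 in BEAS-2B cells. CD151 is the 1 gene of this list that rose in BEAS-2B cells. With total counts or the GC trend removed it did not pass the limit (0.93 and 0.91), which leaves 0 of 3. PLEC, which links β4 integrin to keratin filaments, was at 350, 1259 and 1036 in A549 cells, a rise that was lost at 5 ng/mL with the GC trend removed (0.79), and at 657, 675 and 949 in BEAS-2B cells, within the limit. Proteases that cut laminin chains rose in all cases that could be measured, with 2 of 2 in A549 cells and 3 of 3 in BEAS-2B cells at the higher dose. Their medians were 4.29 and 1.74. BMP1 had 104, 495 and 594 in A549 cells and 256, 672 and 669 in BEAS-2B cells, and MMP2 had 10.4, 493 and 769 in A549 cells and 197, 2923 and 2524 in BEAS-2B cells. MMP14 rose in BEAS-2B cells, from 88.1 to 297 at 5 ng/mL.

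**Figure D5:**
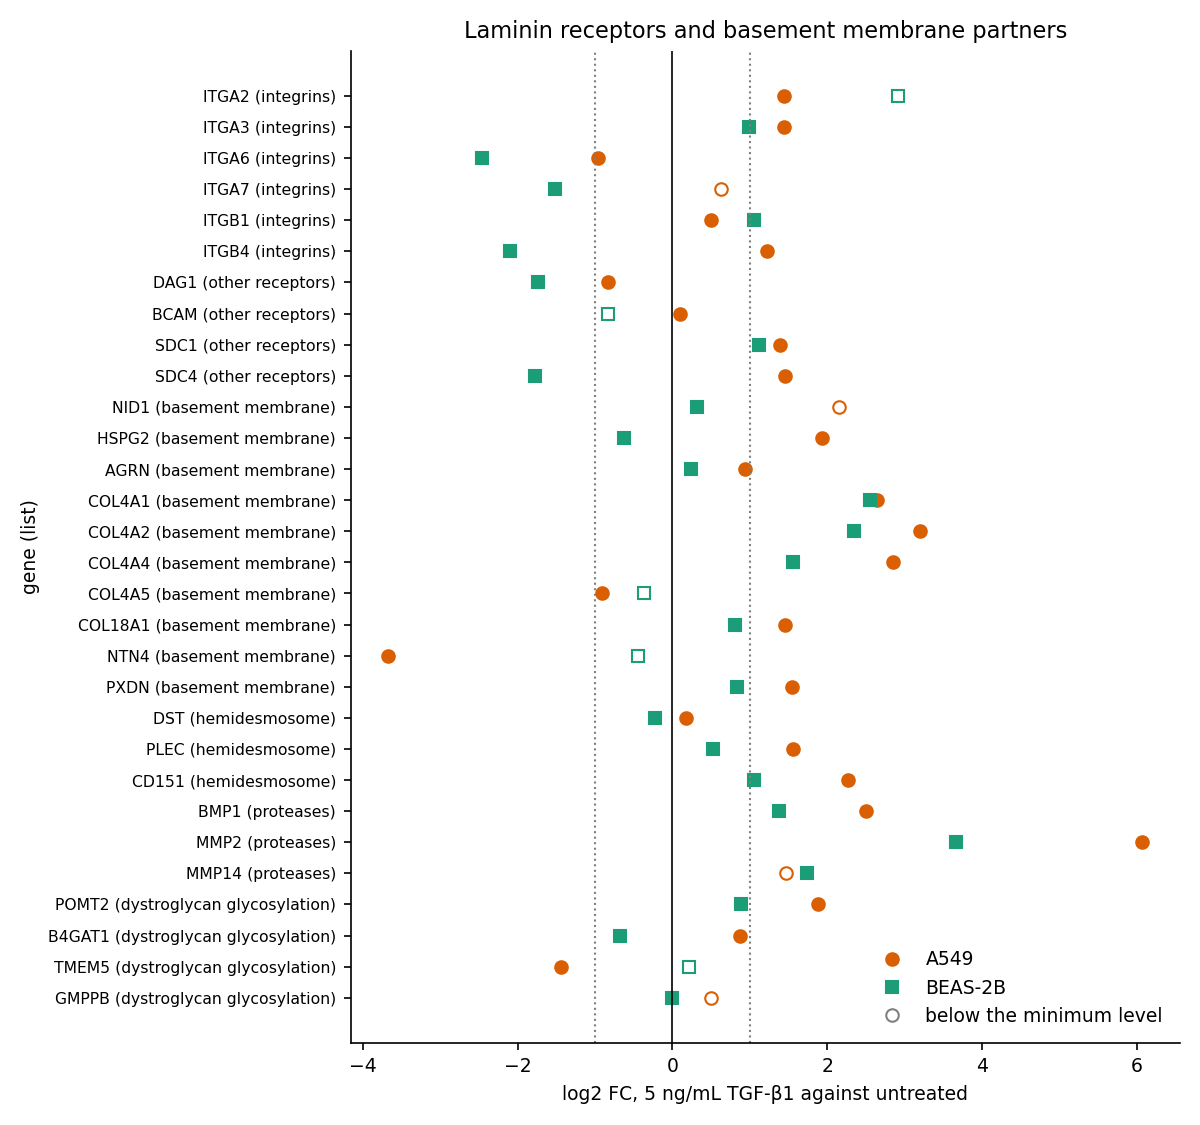
Log2 fold change at 5 ng/mL against control for laminin receptors, basement membrane partners and processing proteases in A549 and BEAS-2B cells, with open symbols for genes under the minimum level and dotted lines at the 2-fold limit. ITGB4 lies at 1.22 in A549 cells and at -2.10 in BEAS-2B cells, and COL4A1 lies at 2.65 and 2.55.

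The genes closest in pattern to LAMC1 were found by Pearson correlation of ND values over the 6 libraries, among 8159 entries that reached the minimum level. They were VHL (r = 0.991), CKAP4 (0.988) and ASF1A (0.986). For LAMB3 they were HS2ST1 (0.997), AJUBA (0.993) and CNOT8 (0.993). The 6 points share 2 cell lines and 2 controls, and among so many entries the highest values are high by selection, so they are given only as a description. LAMB1 and LAMC1, though partners in most trimers, had an r of 0.02 over the 6 libraries. This value pools 2 lines whose control levels of LAMB1 differed 2.91-fold. Both genes lay above their control at both doses in BEAS-2B cells, while in A549 cells at 5 ng/mL LAMB1 lay below it and LAMC1 above it. Among pairs of chains, the highest r were 0.84 for LAMA3 and LAMA5 and 0.77 for LAMB2 and LAMB3. The lowest were -0.90 for LAMA4 and LAMB1 and -0.85 for LAMA3 and LAMC1. LAMA3 had 0 counts in both treated BEAS-2B libraries.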

How the data were processed

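RNA of both lines, untreated or given 1 or 5 ng/mL TGF-β1, was read with a QuantSeq 3′ mRNA kit, 1 library per condition. The values the authors deposited are whole-number read counts per gene symbol, without normalization. The submitters' processing notes name Bowtie2, bedtools and hg19, and the study's methods name ExDEGA. Versions, counting strand and filters are not given in the sources used here. Groups came from the labels.

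Counts were scaled with TMM factors over 6 libraries (edgeR 4.0.16, R 4.3.3). Fold changes used a pseudocount of 1, ratios and intervals used none. No test was run. Tables and figures were made with Python 3.11.15, pandas 2.3.3, numpy 2.4.6, matplotlib 3.10.9 and scipy 1.17.1, and the steps were tested on simulated data. Totals of 4120624 to 7841350 set the precision, and 3 counts were taken as the floor for a count of 0. The 14 alternatives included DESeq2 1.42.0 size factors, and 1 more was added after seeing the data.

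The members and lists were chosen with earlier results of these data known. Of related lists, counts are given, with the 2 genes of largest change at 5 ng/mL in each line and ITGA3, ITGA6, ITGB1, ITGB4 and DAG1. For pattern, the 3 entries with the highest correlation are named. ITGA7 and the neighboring genes of the chains were named after their values were seen. Other laminin chain genes are not reported here, so no share among γ chains was computed. Annotation was GENCODE v29 on GRCh38, and promoters came from RefSeq on GRCh38.p14. Since the counts are on hg19, these positions describe genes and not counted intervals.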

Additional observations from a re-analysis of the deposited data

Results flagged for a closer look

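Some genes lay on one side of their control at both doses in A549 cells and on the other side at both doses in BEAS-2B cells. Those named below are listed because of that opposition. Genes of the related lists also had to reach the minimum level in every comparison with control, which was not asked of the chains. Opposed genes that did not, such as ITGA7 (too low in A549 cells) and BCAM (too low in BEAS-2B cells), are therefore not listed. The difference between the lines was not tested, as each condition had 1 library. The value given is the log2 fold change at 5 ng/mL in BEAS-2B cells minus that in A549 cells.

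Of the laminin chains, LAMB1 differed by 1.25, with -0.31 and -0.43 in A549 cells and 0.83 and 0.82 in BEAS-2B cells at 1 and 5 ng/mL. LAMA4 was not included, since its A549 counts of 0 in the control and 3 at 5 ng/mL do not give a fold change. Of the receptors, ITGB4 differed by -3.32 and SDC4 by -3.23. HSPG2, which encodes the basement membrane proteoglycan perlecan, differed by -2.56, with 2.34 and 1.94 in A549 cells and -0.56 and -0.62 in BEAS-2B cells. B4GAT1, an enzyme of dystroglycan glycosylation, differed by -1.55. DST, which encodes a hemidesmosome plakin, differed by -0.40, with values between -0.36 and 0.18, all within the 2-fold limit.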

How the results depend on the processing

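With 1 library per condition and few chains at the minimum level, the depth limits calls on chains with under about 101 to 185 counts, and the spread between cultures is unknown. No paired analysis was possible because the labels give no replicate numbers and each arm of a comparison within a line holds 1 library. A joint fit over both lines, with the line as a block, would read a change shared by the lines and was not run. Of 616 log2 fold changes of single chains under the alternatives, 3 took the other sign, all of them near 0 or at low counts, and 70 of 70 values of changed chains kept their sign. The 3 were LAMA3 between the doses in A549 cells (0.03, and -0.98 in thinned libraries), LAMB3 between the untreated lines (0.28, and -0.12 with the GC trend removed) and LAMC1 in A549 cells at 1 ng/mL (-0.09, and 0.02 with the GC trend removed). Scaling by total counts gave a median log2 fold change of all genes at 5 ng/mL of -0.14 in place of 0.11 (A549) and of -0.12 in place of 0.03 (BEAS-2B). The share of higher genes among all changed genes went from 48.4% to 33.8% (A549) and from 38.7% to 26.9% (BEAS-2B). At 1 ng/mL this share went from 46.5% to 32.2% and from 38.3% to 27.3%.

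Counts of changed laminin chains moved as follows, and the cause was not tested beyond what each setting changes by its construction. By rule, a count was taken as moved when it changed by more than 1.5-fold or from or to 0. Smaller shifts are mostly not listed. Without a minimum level, chains higher and lower than control were 2 and 2 in A549 cells at 1 ng/mL, 2 and 3 at 5 ng/mL, and 1 and 2 between the doses. In BEAS-2B cells they were 5 lower at 1 ng/mL, 2 higher and 4 lower at 5 ng/mL, and 3 higher between the doses. Between the untreated lines, 2 were higher in BEAS-2B than in A549 cells, and LAMA2 joined LAMA5 and LAMB1 as lower. With a fold limit of 1.5, there was 1 higher and 1 lower in A549 cells at 5 ng/mL, 1 higher between the doses, 2 higher in BEAS-2B cells at either dose and 1 higher between the untreated lines. With a fold limit of 3, there was 1 lower in BEAS-2B cells at 1 ng/mL, 0 higher at 5 ng/mL and 1 lower between the untreated lines. The 2 chains lower in BEAS-2B cells at 1 ng/mL became 1 with DESeq2 size factors, upper quartile factors, the filter of at least 10 counts, a pseudocount of 5 or thinned libraries. They became 0 with the minimum in both libraries or with log2(CPM + 1) as the level. At 5 ng/mL they became 1 in thinned libraries and 0 under the latter 2 settings, and the 1 higher chain became 0 with total counts. With the GC trend removed, 1 chain was lower in A549 cells at 5 ng/mL.

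Counts over the 6 related lists moved too, listed by the same rule, so an unlisted setting can still have shifted a count. With the GC trend removed, COL18A1, ITGA3, ITGB4, PLEC and SDC1 were lost from the 16 genes higher in A549 cells at 5 ng/mL. Genes lower in A549 cells at 1 ng/mL, 2 in all, became 1 with TMM within each line, thinned libraries, the minimum in both libraries or a fold limit of 3, 5 without a minimum, 0 with log2(CPM + 1) and 4 with a fold limit of 1.5, and the 12 higher became 7 with log2(CPM + 1). At 5 ng/mL the 2 lower became 6 with total counts or without a minimum, 1 with TMM within each line or a fold limit of 3, 0 with the minimum in both libraries or log2(CPM + 1) and 5 with a fold limit of 1.5, and the 16 higher became 8 with a fold limit of 3. In BEAS-2B cells at 1 ng/mL the 5 lower became 3 with the minimum in both libraries or a fold limit of 3, 11 without a minimum and 1 with log2(CPM + 1), and the 5 higher became 10 without a minimum, 11 with a fold limit of 1.5 and 3 with a fold limit of 3. At 5 ng/mL the 5 lower became 2 with the minimum in both libraries, 9 without a minimum and 1 with log2(CPM + 1), and the 9 higher became 4 with a fold limit of 3. The shares of chains and the summed α chain counts per LAMC1 count were run only with entries summed per gene symbol and in thinned libraries. They moved by less than their intervals, but these settings cannot decide how firm they are. No chain had multiple entries, so summing changes nothing, and thinning draws from the same counts. LAMB1 counts per LAMC1 count were not run under an alternative.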
